A study of Mus musculus with 2 samples.

Results

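The cells described here are the d16 naive-like cells: cells with a high level of Dppa5a in a culture of mouse epiblast stem cells treated with AICAR and LIF for 16 days. A d16 cell was a member where Dppa5a took 1000 or more of every 1000000 reads of the cell (1000 CPM) and the 2-cell stage genes Zscan4c, Zscan4d and Zscan4f together took fewer than 500 CPM. The rule kept 1256 of 4315 d16 cells, among 17720 cells of 5 tagged populations. It left 3037 d16 cells below 1000 CPM of Dppa5a, the other d16 cells, and 22 cells that passed for Dppa5a but were left out for their Zscan4 reads. Members and other d16 cells carried the same tag, which stands for 1 treatment and day, and were read in 1 library. The number of dishes behind the tag is not given. The other cells can include feeders, which are not of the stem cell line. The culture was started from primed mEpiSCs of the Oct4GIP line, strain 129/Ola, which carry an Oct4-driven GFP and puromycin resistance transgene. The cells stood for 1 day on mouse embryonic fibroblast (MEF) feeders with FGF2 and Activin A, and then in Basal medium with AICAR, an activator of AMP-activated protein kinase (AMPK), and LIF. The other tags, used for reference only, marked naive mESCs of the Rex1-GFP line, primed Oct4GIP mEpiSCs, the treated cells at day 8 (d8), and d16 cells expanded for 10 passages in 2 inhibitors and LIF (d16+10p).

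Each tag marked 1 population from 1 stem cell line, with feeders where these were used, and all tags were read in 1 library. Nothing below therefore compares replicate cultures, and no test between groups was possible. Cells are not replicates, and no p-value is given. Intervals are 95% exact intervals, which cover counting error of reads or cells and nothing else, and they are too narrow where reads are copies of 1 molecule. Members held 3187 to 66003 reads per cell with a median of 14287.5, and other d16 cells held 3186 to 72616 reads with a median of 8691. Mitochondrial transcripts took 7.35% of reads in members and 7.96% in other d16 cells. The feeder cells remained in the culture, and 2 cells of the same tag in 1 well were not removed as doublets by the study, since its doublet call rested on ambiguous tags. Levels are sums of reads over cells, given in CPM, and comparisons are given as log2 ratios after 1 CPM was added to both levels.

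Primed epiblast stem cells correspond to the epiblast after implantation and depend on FGF and activin signals, whereas naive stem cells correspond to the epiblast before implantation and are held by LIF, which acts through STAT3. Naive cells use a circuit of transcription factors (Esrrb, Tfcp2l1, Klf2, Klf4, Tbx3) that primed cells lack, and they have little DNA methylation, a state in which several germ cell genes with CpG-rich promoters are transcribed. Dppa5a encodes an RNA-binding protein of the KH family that marks naive and early embryonic cells, Dazl an RNA-binding protein of germ cells, Stra8 a gatekeeper of meiosis, Nanog a core pluripotency factor, and Zfp42 (Rex1) a zinc finger protein of naive cells.

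The 250 bases before the start of 5 of these genes, from RefSeq on GRCm38.p6, are shown because Dazl and Stra8, germ cell genes, and Nanog and Zfp42, pluripotency genes, came with the label as its markers, and Hormad1 was the germ cell gene compared whose window holds an E-box. Each is written on the strand of its gene. Capitals mark matches to the E-box CACGTG or to an E2F-type site, TCCCGC or its reverse GCGGGA, the letters of the E2F6 and MAX sites by which germ cell genes are repressed in embryonic stem cells.
Dazl, chr17:50293621-50293870, minus strand: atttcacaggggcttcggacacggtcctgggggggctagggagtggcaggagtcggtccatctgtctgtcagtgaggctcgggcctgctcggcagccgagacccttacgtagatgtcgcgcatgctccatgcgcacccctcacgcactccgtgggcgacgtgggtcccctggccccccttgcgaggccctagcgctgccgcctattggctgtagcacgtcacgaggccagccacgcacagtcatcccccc
Stra8, chr6:34920698-34920947, plus strand: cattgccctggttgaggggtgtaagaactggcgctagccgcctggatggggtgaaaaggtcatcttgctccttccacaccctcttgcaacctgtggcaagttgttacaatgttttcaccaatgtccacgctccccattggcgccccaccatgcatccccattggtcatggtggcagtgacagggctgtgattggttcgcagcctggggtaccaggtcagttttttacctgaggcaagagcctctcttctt
Hormad1, chr3:95559427-95559676, plus strand: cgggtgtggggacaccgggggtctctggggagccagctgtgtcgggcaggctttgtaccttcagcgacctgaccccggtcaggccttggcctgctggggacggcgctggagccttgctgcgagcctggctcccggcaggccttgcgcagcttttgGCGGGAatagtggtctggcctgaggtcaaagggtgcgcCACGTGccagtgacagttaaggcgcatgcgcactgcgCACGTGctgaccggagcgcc
Nanog, chr6:122707239-122707488, plus strand: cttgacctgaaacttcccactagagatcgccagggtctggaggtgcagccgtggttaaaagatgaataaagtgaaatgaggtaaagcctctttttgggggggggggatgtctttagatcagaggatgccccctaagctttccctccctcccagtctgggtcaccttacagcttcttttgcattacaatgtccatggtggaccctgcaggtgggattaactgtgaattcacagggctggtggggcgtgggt
Zfp42, chr8:43307010-43307259, minus strand: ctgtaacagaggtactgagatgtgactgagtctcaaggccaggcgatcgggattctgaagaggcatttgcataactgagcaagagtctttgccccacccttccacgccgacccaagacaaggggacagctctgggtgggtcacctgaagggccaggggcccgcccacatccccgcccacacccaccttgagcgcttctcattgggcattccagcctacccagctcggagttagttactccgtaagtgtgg
The Hormad1 window held 2 E-boxes and 1 E2F-type site, and the other 4 windows held neither. The windows of Dazl and Hormad1 held 20 and 19 CpG, those of Stra8, Zfp42 and Nanog held 5, 9 and 3, and the median was 6 over all 27025 promoters and 18 over the 3259 promoters of genes at a level to be compared. Both strands were searched. The E-box was found in 6.02% of all promoters, in 15 of 41 promoters of the whole germ cell and meiosis list, and in 1 of 8 of its genes at a level to be compared, which was Hormad1. An E2F-type site was found in 17.0% of all promoters and in 32.9% of promoters of all genes compared. Among genes at least 2-fold higher in members it was found in 36.9%, and among those at least 2-fold lower in 30.6%. Of the whole germ cell list, 14 of 41 promoters (34.1%) held it, and of its genes at a level to be compared 5 of 8. A STAT-type site (TTCNNNGAA) was found in none of the 5 windows, against 7.05% of all promoters. A match is a description of letters, and binding was not measured.

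Dppa5a, the gene that chose the members, had a valley near the limit. In members it ran from 1012.4 CPM to 11327.4 CPM per cell with a median of 3634.56 CPM, and 1082 of 1256 members were at 2000 CPM or more. The 2 members nearest to the limit were at 1012.4 and 1020.15 CPM, and the 2 nearest cells outside it were at 991.642 and 991.277 CPM. Of the other d16 cells, 1574 had no Dppa5a read, their 90th percentile was 280.034 CPM, and 111 lay between 500 and 1000 CPM, against 80 members between 1000 and 1500 CPM. For the Zscan4 genes, the highest member was at 456.361 CPM and the lowest cell left out at 709.178 CPM, and 47 members had a Zscan4 read. The members were 29.1% of d16 cells (27.8 to 30.5%). The same limits took in 71.2% of naive, 3.40% of primed, 0.738% of d8 and 80.4% of d16+10p cells.

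**Figure D1:**
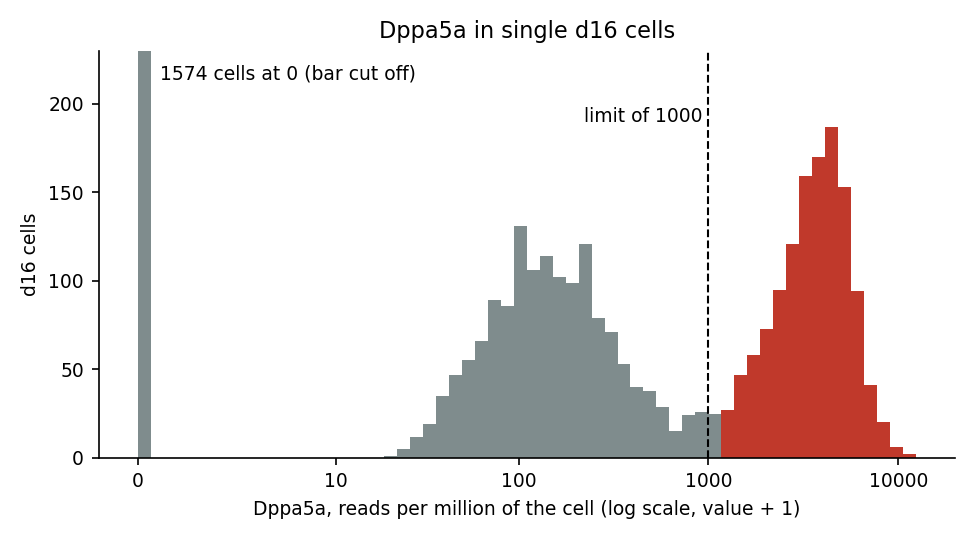
Dppa5a in each of the 4315 d16 cells, as CPM of the cell on a log axis (value + 1), with the number of cells per bin on the y axis. Cells below the limit of 1000 (dashed line) are grey and cells above it red, except the first bin above the limit, of 25 cells, which is grey. The cells above the limit are the 1256 members and the 22 cells left out for Zscan4. Grey and red cells form separate humps, with few cells around the limit, and the bar of 1574 cells without a read is cut off at the top.

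Against the other d16 cells, the members had higher levels of core and naive pluripotency genes, germ cell genes and most genes of the DNA methylation and proliferation lists, and lower levels of most mesenchyme, smooth muscle and neural genes. Of 4352 genes at 50 CPM or more in either group, 584 were at least 2-fold higher in members (13.4% of genes compared) and 653 at least 2-fold lower (15%). The median log2 ratio over all of them was 0.07, with a range of -3.60 to 4.54. The other 3115 genes were within 2-fold. A listed gene entered only with 50 CPM in either group, so that a gene low in other d16 cells could enter only through its level in members, and the counts for the pluripotency and germ cell lists are descriptions of the genes that did. All genes were read in the cells that Dppa5a had sorted, and none of these differences is a test.

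**Figure D2:**
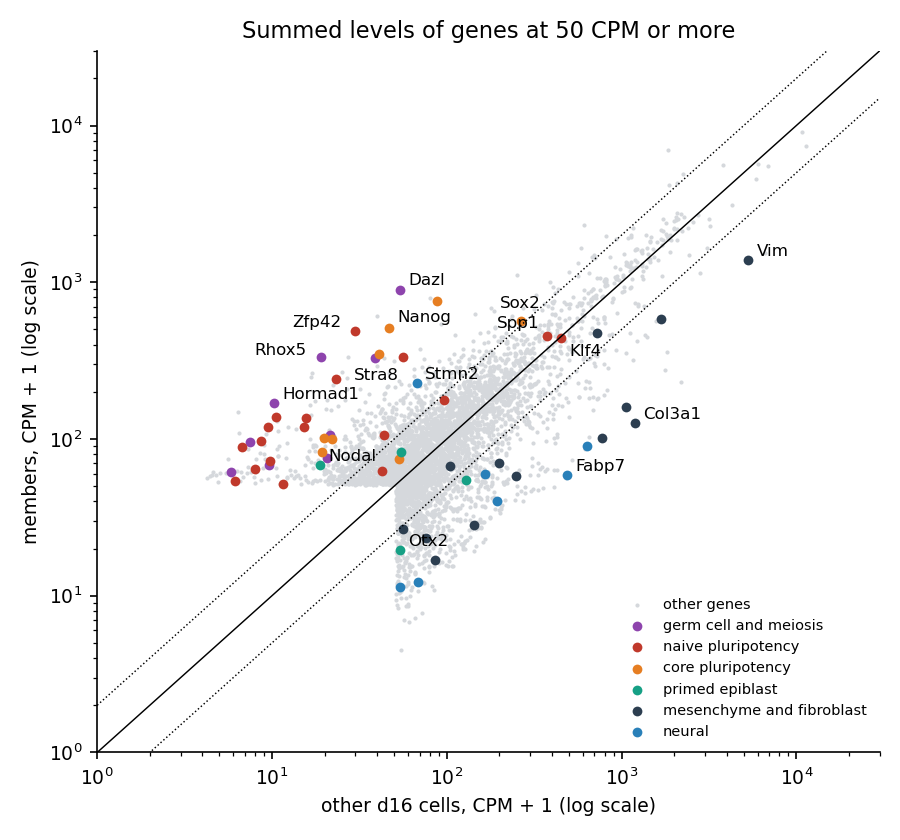
Summed level of each of 4352 genes in members (y axis) against other d16 cells (x axis), in CPM + 1 on log axes. Each point is a gene, colours mark 6 gene lists, the solid line marks equal levels and the dotted lines a 2-fold difference. Germ cell genes and most naive and core genes lie above the upper dotted line. Below the lower one lie 11 of 13 mesenchyme genes, and Klf4 and Spp1 lie near equality.

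Among core pluripotency genes, shared by naive and primed cells, 7 of 8 compared were at least 2-fold higher in members and none lower, with a median log2 ratio of 2.27. Pou5f1 (Oct4), which both states need, was at 348 CPM in members and 39.9 CPM in other d16 cells, a log2 ratio of 3.09 (3.01 to 3.18). After each cell had been thinned to 5000 reads, 75.6% of members had a Pou5f1 read, against 13.1% of other d16 cells and 12.8% of macrophage-marker cells, which should lack the gene. Thinning left out 40 members, 564 other d16 cells and 163 of 1084 macrophage-marker cells as too shallow. The share in other d16 cells was thus close to that in cells of another type, and is read as background. Nanog was at 507 and 46.0 CPM (log2 ratio 3.43, 3.36 to 3.51), with a read in 80.6%, 16.2% and 13.1% of the 3 groups. Without thinning, Nanog reads were in 91.9% of members, 26.7% of other d16 cells and 30.3% of macrophage-marker cells, whose median was 15424 reads. Tdgf1 (Cripto), a Nodal co-receptor, was at 761 and 86.8 CPM (log2 ratio 3.12).

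Sox2, a factor of neural as well as of pluripotent cells, had a smaller ratio. It was at 566 CPM in members and 265 CPM in other d16 cells, a log2 ratio of 1.09 (1.05 to 1.13). A read was found in 87.6% of thinned members, 58.5% of other d16 cells and 23.3% of macrophage-marker cells, so that in other d16 cells it was above background. Sall4, L1td1 and Trim71, a zinc finger factor and RNA-binding proteins of pluripotent cells, had log2 ratios between 2.08 and 2.35. Zfp281 was the core gene within 2-fold (73.1 and 52.0 CPM).

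Of naive pluripotency genes, 14 of 18 compared were at least 2-fold higher in members and none lower, with a median log2 ratio of 2.99, while 7 listed genes were below 50 CPM in both groups. Zfp42 was at 487 CPM in members and 28.7 CPM in other d16 cells (log2 ratio 4.04, 3.95 to 4.13). It had a read in 77.8% of thinned members, 10.4% of other d16 cells and 8.90% of macrophage-marker cells. The nuclear receptor gene Esrrb was at 118 and 8.44 CPM (3.65), and Tfcp2l1, a factor that answers to STAT3, at 95.5 and 7.70 CPM (3.47). Tdh, which encodes the threonine dehydrogenase that mouse embryonic stem cells depend on, was at 137 and 9.5 CPM (3.71). Dppa3 (Stella), which protects the maternal genome from demethylation, was at 118 and 14.3 CPM (2.96).

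The Kruppel-like factors, zinc finger activators of the naive circuit, split. Klf2 was at 331 CPM in members and 55.5 CPM in other d16 cells (log2 ratio 2.55), whereas Klf5 was at 177 and 95 CPM (0.89). Klf4 was at 443 and 450 CPM, a log2 ratio of -0.02 (-0.06 to 0.01), and 75.2% of thinned members and 75.1% of other d16 cells had a Klf4 read, above the 52.9% of macrophage-marker cells. Tet2, a methylcytosine dioxygenase, and Spp1, a secreted phosphoprotein that macrophages express too, were also within 2-fold (0.54 and 0.27). Klf4 was thus read at near equal levels and in like shares of cells in both groups, whereas Spp1 had a read in 78.2% of thinned members, 48.6% of other d16 cells and 92.0% of macrophage-marker cells.

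All 9 germ cell and meiosis genes compared were at least 2-fold higher in members, with a median log2 ratio of 3.41. Of 49 listed genes in the table, 40 were below 50 CPM in both groups, and with every listed gene counted the median was 2.35. Dazl was at 897 CPM in members and 52.7 CPM in other d16 cells (log2 ratio 4.06, 4.0 to 4.13). Its reads were in 88.2% of thinned members, in 11.2% of other d16 cells and in 10.3% of macrophage-marker cells. Without thinning the shares were 94.8%, 18.6% and 23.3%. The share in other d16 cells was thus close to the background, but the summed level was above the 23.2 CPM of macrophage-marker cells. The highest thinned other d16 cell had 19 Dazl reads of 5000, and the highest macrophage-marker cell had 9.

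Stra8 was at 330 and 37.9 CPM (log2 ratio 3.09, 3.01 to 3.17), with a read in 55.8% of thinned members, 6.27% of other d16 cells and 3.58% of macrophage-marker cells. Hormad1, a protein of the meiotic chromosome axis, was at 169 and 9.33 CPM (4.04), and Smc1b, a meiotic cohesin subunit, at 94.3 and 6.45 CPM (3.68). Rhox5, an X-linked homeobox gene of the germ line and early embryo, was at 333 and 18.1 CPM (4.13). Tex19.1, which restrains retrotransposons in germ cells and placenta, was at 60.5 and 4.79 CPM (3.41). The receptor gene Kit, the AP-2 factor gene Tfap2c and the synaptonemal complex gene Syce2 had log2 ratios of 2.3, 2.83 and 1.87. Among genes of the list under 50 CPM, chosen after their values were seen, Asz1, Stk31 and Ddx4, of the piRNA pathway and germ granules, were at 45.0, 38 and 41.3 CPM in members and at 2.65, 2.40 and 5.88 CPM in other d16 cells.

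The 15 largest ratios upward named further genes of this kind. Ooep, an oocyte factor of the subcortical maternal complex, had the largest, with 148 CPM in members and 5.39 CPM in other d16 cells (log2 ratio 4.54, 4.36 to 4.73). It lies 7932 bases from Dppa5a (chr9:78367052-78368177) on the same strand, and the RNA helicase gene Ddx43, which starts 27600 bases from Dppa5a beyond Ooep on the other strand, was at 7.56 and 0.628 CPM. Eef1a1, a translation elongation factor gene in the same stretch, had a log2 ratio of -0.24. Crxos, a homeobox gene antisense to Crx, was at 108 and 5.51 CPM, and Rnf17, of the piRNA pathway, at 60.6 and 3.59 CPM. Upp1, uridine phosphorylase of pyrimidine salvage, was at 609 and 38.9 CPM (3.93) and Mylpf, a myosin light chain gene, at 261 and 15.9 CPM (3.96). 1700013H16Rik, Dmrtc1c2, 2410141K09Rik, Zfp988 and Dppa2 made up the others with Dazl, Rhox5, Zfp42, Hormad1 and Tdh, at ratios of 3.71 to 4.13. Reads of Zfp988 and Dmrtc1c2, which have close copies in the genome, may be shared with those copies.

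The label was checked on the markers that came with it. Among thinned cells, 382 of 1216 members had a read of all 4 of Dazl, Zfp42, Nanog and Stra8, 540 had reads of 3, 244 of 2, 42 of 1 and 8 of none. Of 2473 thinned other d16 cells, 14 had all 4, 38 had 3, 127 had 2, 666 had 1 and 1628 had none. Of the 18 naive genes, members had a read of 8 in the median and none of them lacked all, against 2 in other d16 cells and 2 in macrophage-marker cells. Of the 9 germ cell genes, members had a read of 4 in the median and 18 members had none, against a median of 0 in other d16 cells. Most of these listed genes entered through their level in members, and the cells were sorted by Dppa5a, so that these counts describe the members and are no test of the label. The d16 members also had more Dazl than the naive-tagged cells that met the rule: 897 against 173 CPM, with a median of 4 and 0 reads of 5000.

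**Figure D3:**
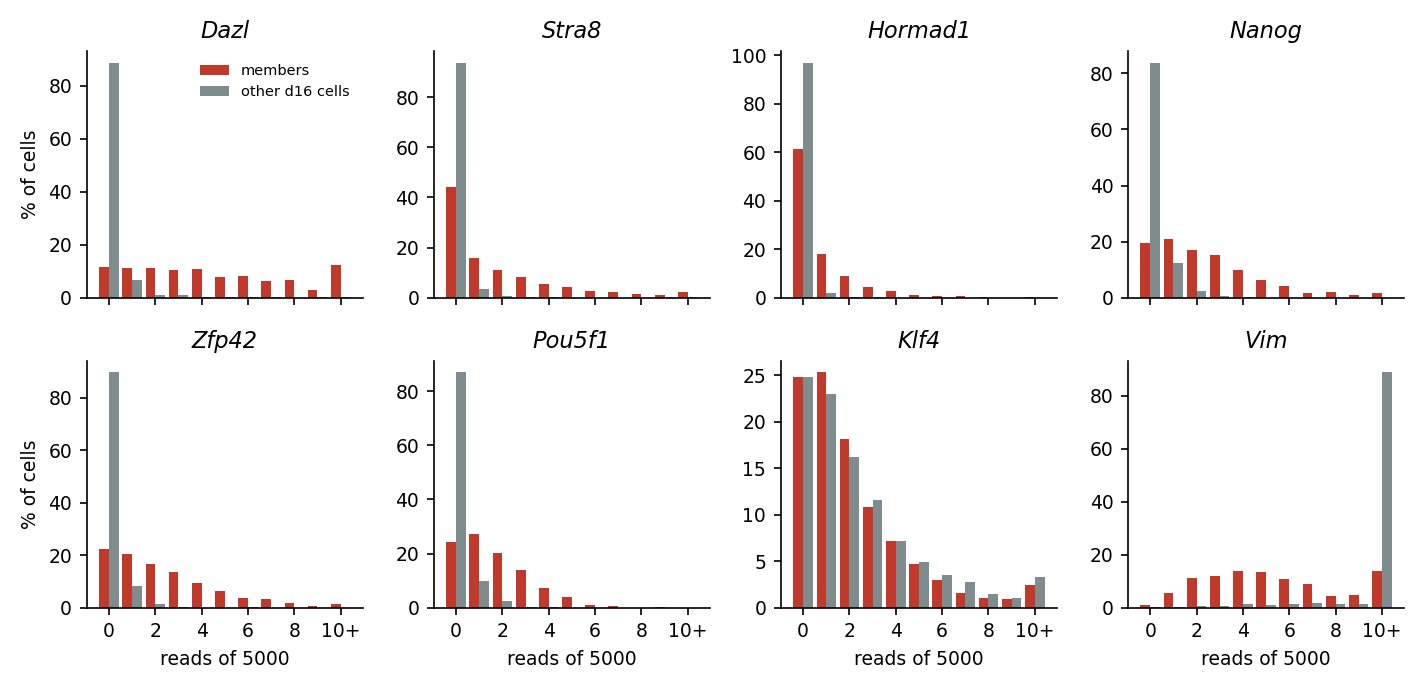
Share of cells, in percent, by the number of reads of a gene among 5000 reads of a cell (10+ pools 10 and more), for 8 genes in 1216 thinned members (red) and 2473 thinned other d16 cells (grey). For Dazl, Stra8, Hormad1, Nanog, Zfp42 and Pou5f1 most other d16 cells stand at 0 while members spread out to the right, for Klf4 both groups have the same shape, and for Vim the order is turned, with most other d16 cells at 10 or more.

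Primed epiblast genes did not share 1 direction. Of 22 listed, 4 were at 50 CPM or more, 1 higher and 2 lower in members, with a median log2 ratio of -0.31. Otx2, a homeobox factor of primed cells, was at 18.5 CPM in members and 52.7 CPM in other d16 cells (-1.46, -1.62 to -1.31). Dnmt3a, a de novo DNA methyltransferase, was at 54.0 and 127 CPM (-1.22). Nodal, the ligand of the pathway that primed cells require, went the other way with 67.5 and 17.8 CPM (1.86, 1.73 to 2.00). Zic5 was within 2-fold (0.59). With a level filter of 20 CPM the list had 9 genes and the median was 0.46, and with no filter it was -0.34, so that no direction is given for it. Twist1, a factor of mesenchyme, was the mesoderm and endoderm gene at this level, with 17.1 CPM in members and 78.3 CPM in other d16 cells (-2.13).

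Other cell types were read in the same way, since MEF feeders and differentiated cells can carry the same tag. Of 13 mesenchyme and fibroblast genes compared, 11 were at least 2-fold lower in members and none higher, with a median log2 ratio of -1.95. Vim, an intermediate filament gene, was at 1378 CPM in members and 5313 CPM in other d16 cells (-1.95), Sparc, a matrix protein gene, at 582 and 1688 CPM (-1.53), and Col3a1, a fibrillar collagen gene, at 126 and 1197 CPM (-3.24, -3.30 to -3.18). All 4 smooth muscle genes compared were lower (median -1.22). The neural list had 6 of 7 genes lower, with a median of -2.26. Ptn, a growth factor gene, was at 89.1 and 629 CPM, and Fabp7, of radial glia, at 57.7 and 487 CPM (-3.06), while Stmn2, a stathmin of neurons, was higher in members with 225 and 66.5 CPM (1.74). Among 5 epithelial genes, Cdh1 (E-cadherin) was higher (151 and 41.2 CPM) and Krt18 and Anxa1 lower. Lyz2 of macrophages was at 205 and 823 CPM and Peg10 of the trophoblast list at 107 and 425 CPM. A read of Col3a1, Ptn and Fabp7 was in 36.3%, 26.7% and 13.8% of thinned members, and in 34.9%, 26.4% and 18.0% of macrophage-marker cells. These shares in members were thus close to the background or below it, whereas Stmn2 had a read in 53.9% and 20.6%.

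The largest ratios downward were Ogn (3.51 and 53.6 CPM, log2 ratio -3.60), a matrix proteoglycan gene, and Igf2, the imprinted growth factor gene, at 230 and 2192 CPM (-3.25). Rspo2, a Wnt agonist gene, Mfap2 and Col1a1, matrix genes, and Nr2f1, a nuclear receptor gene of neural and mesenchymal cells, lay among the 15, with log2 ratios of -3.21, -2.95, -2.91 and -3.06. Hp, Cldn2, Gm49394, Tacr1, Hepacam2, Ildr2 and Parm1, with Col3a1 and Fabp7, made up the rest, at -2.86 to -3.24. Gm49394 overlaps Igf2 on the same strand, and its reads may be shared with that gene. Per cell, the sum of the mesenchyme list had a median of 2469 CPM in members (582 to 55729) and 9667 CPM in other d16 cells (509 to 123964), and 22 of 1256 members lay above the median of the other cells. For the neural sum, 31 members lay above the median of the other cells. For the macrophage sum the medians per cell were 256 and 252 CPM, and 644 members were above the latter, whereas the list summed over all cells was at 316 CPM in members and 1000 CPM in other d16 cells.

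Signalling genes did not follow 1 direction within a pathway. In the LIF and STAT3 list, 1 of 6 genes was higher and 3 lower (median -0.95). Pim1, a kinase gene induced by STAT3, was at 170 and 50.2 CPM (1.74), whereas Junb was at 39.1 and 184 CPM (-2.21), Stat3 itself at 64.9 and 144 CPM (-1.14) and the receptor subunit gene Il6st at 52.0 and 129 CPM (-1.29). Of 7 FGF and ERK targets, 1 was higher and 4 lower (median -1.11). Etv5, an ETS factor gene, was at 162 and 22.9 CPM (2.77), whereas Egr1, an immediate early gene, was at 583 and 1611 CPM (-1.46). Mapkapk2, a kinase gene downstream of p38, was the gene of the AMPK and p38 list at 50 CPM or more (27.7 and 62.3 CPM, -1.14), and the AMPK subunits were below it in both groups.

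Of the DNA methylation list, 4 of 5 genes were at least 2-fold higher and 1 lower (median 1.48). Trim28, a corepressor of retroelements, was at 481 and 172 CPM (1.48), Uhrf1, which recruits the maintenance enzyme, at 193 and 42.9 CPM (2.14), Tet1 at 179 and 43.0 CPM (2.03) and Dnmt1, the maintenance enzyme, at 122 and 54.5 CPM (1.15). Tet3 was lower (25.2 and 56.2 CPM). Of 17 proliferation genes, 11 were higher and 1 lower (median 1.28). The replication helicase gene Mcm6 was at 197 and 43.2 CPM (2.16) and Top2a at 454 and 186 CPM (1.28), whereas the p21 gene Cdkn1a was within 2-fold with 751 and 881 CPM (-0.23) and the cyclin gene Ccnd2 was lower with 91.7 and 206 CPM (-1.16). No gene of the 2-cell stage or Y-linked list reached 50 CPM in either group.

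How far single members differed from each other was read after thinning to 5000 reads. The spread of a gene was its coefficient of variation (CV) over 1216 members, divided by the median CV of the 201 genes nearest in mean level, so that 1 is the spread of genes read as often. Over 3548 genes the median of this ratio was 0.998, and 1697 of them were above 1. Above about 10 reads of 5000 the window holds genes of unlike level, and ratios there are not read. The naive list had a median ratio of 1.14, with 17 of 18 genes above 1, the germ cell list one of 1.08 with 9 of 9 above 1, and the core list one of 1.03 with 5 of 8 above 1. Proliferation genes stood at 1.08, with 17 of 17 above 1, so that a ratio slightly above 1 was shared by lists of unlike function.

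Single genes stood further out. Reads can be copies of 1 molecule, which can widen the CV of a gene, and the part of this in the ratios was not tested. Dppa3 had a ratio of 1.75 (CV 2.54): 71.0% of members had no Dppa3 read, the 90th percentile was 2 reads and the highest member had 35 reads of 5000. Stra8 had a ratio of 1.59 (CV 1.42), with no read in 44.2% of members, a median of 1, a 90th percentile of 6 and a highest value of 20 reads. Dazl had no read in 11.8% of members, a median of 4, a 90th percentile of 10 and a highest value of 26 reads. Its CV was 0.852 and its ratio 1.46, so that it too was wider than genes of its level. Hormad1 had a ratio of 1.44, with no read in 61.3% of members and up to 14 reads. Rhox5 (1.13), Tex19.1 (1.08), Smc1b (1.07) and Kit (1.02) were close to genes of their level.

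Tdgf1 was the core gene with the widest spread, at a ratio of 1.55 (CV 0.990), with a median of 3, a 90th percentile of 9 and a highest value of 29 reads, and 17.8% of members without a read. Fbxo15, an F-box gene of embryonic stem cells, followed at 1.46 and Klf4 at 1.37. Nanog and Zfp42 both had a median of 2 reads and ratios of 1.19 and 1.20, with highest values of 20 and 18. Pou5f1 (0.971), Sall4 (0.996), Trim71 (0.972) and Tbx3 (0.997) were no wider than genes of their level, and Pou5f1 reached at most 9 reads. Nodal (1.07), Zic5 (1.06) and Dnmt3a (1.01) of the primed list were close to 1.

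**Figure D4:**
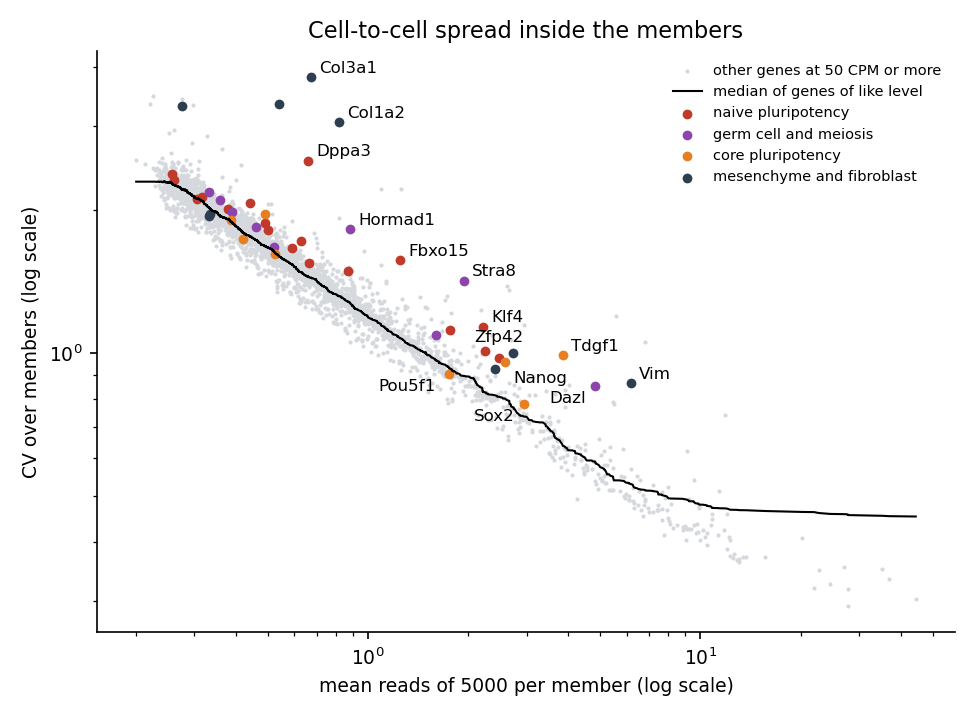
CV of each gene over the 1216 thinned members (y axis) against its mean reads of 5000 per member (x axis), both on log axes. The black line is the median CV of genes of like level, and colours mark 4 lists. Col3a1, Col1a2, Dppa3, Stra8 and Tdgf1 lie well above the line, and Pou5f1 lies on it, at 0.971 of its level median.

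The 2 widest genes were collagen genes. Col3a1 had a ratio of 2.64, with no read in 63.7% of members and 65 reads of 5000 in the highest. The share of members with a Col3a1 read, 36.3%, was close to the 34.9% of macrophage-marker cells. Col1a2 was next with 2.32, the ferritin gene Fth1 had 2.21 and Col1a1 had 2.09. Igfbp5, Tmsb4x, Igf2, Mt1, Mt2, Vim, Egr1, Vtn, Mmp12, Car3 and Dcn were the other genes among the 20 widest that no pluripotency or germ cell list held, at ratios of 1.49 to 2.07, beside CT010467.1, whose mean of 11.8 reads of 5000 lies in the range that is not read. Without the 126 members with the highest mesenchyme sums, the ratios of Col3a1, Col1a2, Col1a1 and Vim were 0.925, 0.961, 0.910 and 1.03. These genes are of the list that chose the 126, so that their lower ratios describe that choice. Those of Dppa3 (1.82), Stra8 (1.57), Tdgf1 (1.57) and Mt1 (1.82) stayed above 1.5.

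These 126 members had a median of 21413.5 reads and 5120.5 genes per cell, against 13864 reads and 4037 genes in the other 1130 members. Their summed levels were lower for Dppa5a (2368 against 3958 CPM), Dazl (508 against 960 CPM), Stra8 (167 against 356 CPM), Nanog (308 against 539 CPM) and Pou5f1 (239 against 366 CPM). They were higher for Vim (3452 against 1043 CPM), Col3a1 (376 against 85.6 CPM), Igf2 (638 against 164 CPM) and Fabp7 (194 against 35.7 CPM). Lyz2 was at 230 and 201 CPM. The 126 were chosen by the mesenchyme sum, so that Vim and Col3a1 describe that choice. Reads and genes per cell moved with this set of members, and their part in it was not tested.

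The metallothionein genes Mt1 and Mt2, which bind zinc and copper, were wide on their own and moved together. Mt1 had no read in 27.1% of members, a median of 1 and up to 48 reads. Over 1216 thinned members Spearman's rank correlation of Mt1 and Mt2 was 0.470, the highest of the 453628 pairs among the genes with a read in at least 50% of thinned members. Over all these pairs the median of the absolute rank correlation was 0.0232 and the 99th percentile 0.111. All members share 1 library and 1 tag, and thinning removed differences of depth but not of composition. Values near the median of all pairs are not read.

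Of the 78 pairs among 13 pluripotency and germ cell genes read this widely, the median absolute rank correlation was 0.0638. Nanog and Zfp42 had the highest value, 0.292, followed by Dazl and Stra8 with 0.229, Nanog and Tdgf1 with 0.219, Dppa5a and Nanog with 0.207 and Zfp42 and Tdgf1 with 0.205. Dazl was at 0.0034 with Nanog, -0.0069 with Zfp42 and -0.0951 with Tdgf1. Stra8 ran against the group, at -0.144 with Dppa5a, -0.140 with Tdgf1, -0.116 with Zfp42 and -0.0976 with Nanog. Dppa3, which 29.0% of members had reads of, went with the germ cell pair, at 0.156 with Stra8 and 0.124 with Dazl. This pair of values and those for Ooep were added after the data were seen. Ooep, the neighbour of Dppa5a, had a rank correlation of 0.273 with it. Pigp, an enzyme gene of GPI anchor synthesis, was the gene with the highest rank correlation to Dppa5a, 0.323. Dppa5a chose the members, so that its rank correlations cover only cells above its limit.

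**Figure D5:**
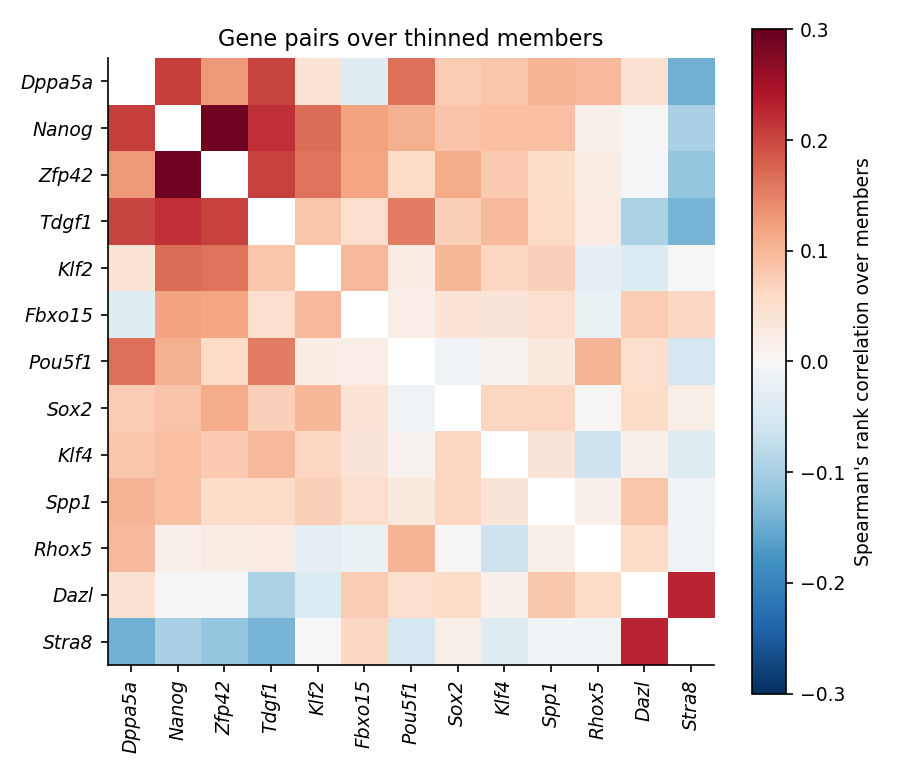
Spearman's rank correlation for each pair of 13 genes over 1216 thinned members, red for positive and blue for negative values, with the diagonal left blank. A block of red joins Dppa5a, Nanog, Zfp42 and Tdgf1 at 0.130 to 0.292, a second red cell joins Dazl and Stra8 at 0.229, and Stra8 is blue against that block. Dppa5a chose the members, and its values cover only cells above its limit.

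Members were then ordered by 1 gene at a time and the ends compared over all other genes, as sums of thinned reads. A gene entered with 50 CPM in either end, so that a gene near that level could enter only through its higher end. The counts and list medians describe the genes that did. The 406 members lowest in Dazl had 0 to 2 reads and the 405 highest had 6 to 26. Of 3879 genes compared, 3 were at least 2-fold higher in the high end (0.0773%) and 1 lower (0.0258%). The 3 were Ddx4, an RNA helicase gene of germ granules (65.2 against 27.6 CPM, log2 ratio 1.21, 0.76 to 1.67), Stra8 (540 against 258 CPM, 1.07, 0.91 to 1.22) and Asz1 (61.2 against 29.1 CPM, 1.05), all of the germ cell list. Ddx4 and Asz1, at 41.3 and 45.0 CPM over all members, entered only through the high end. Fabp7 was the gene lower (-1.10), at 29.6 against 64.5 CPM, both below the 70.5 CPM of macrophage-marker cells. Of 12 germ cell genes, 11 had positive ratios, with a median of 0.63, against 0.12 for 17 naive genes and 0.01 for all genes, of which 2002 had positive ratios. Nanog (509 against 505 CPM) and Zfp42 (483 against 484 CPM) were level between the ends, while Vim was at 1036 against 1446 CPM, and the mesenchyme median was -0.45. The low end had a median of 15896 reads per cell before thinning and the high end 13037.

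Ordered by Nanog, the 405 highest members (3 to 20 reads) were compared with the 406 lowest (0 or 1 read). Of 3852 genes, Zfp57, a factor that guards imprints, was higher (67.7 against 32.0 CPM, log2 ratio 1.06, 0.63 to 1.49), which is 0.026%. Gm16344 (-1.87) and Col3a1 (-1.19) were lower, which is 0.0519%. Col3a1 was at 87.9 against 201 CPM, beside 192 CPM in macrophage-marker cells. Of 18 naive genes, 17 had positive ratios with a median of 0.52, against 1938 of all 3852 genes, led after Zfp57 by Jam2 (0.96), Zfp42 (0.79), Esrrb (0.72) and Klf2 (0.60). The germ cell median was -0.12, and Stra8 was at 320 against 448 CPM (-0.48). Reads per cell had medians of 14904 and 13595.5.

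Members with a Stra8 read, 679 in number, were set against the 537 without. Of 3794 genes, Dmrt1, a germ cell factor gene that acts upstream of Stra8, was at least 2-fold higher (59.8 against 20.5 CPM, log2 ratio 1.5, 1.08 to 1.94), which is 0.0264%, and 0 genes (0%) were lower by as much. Dppa3 (165 against 89.8 CPM, 0.87) and Asz1 (0.85) came next, and Dazl was at 1098 against 801 CPM (0.45). Dmrt1 and Asz1, at 40.5 and 45.0 CPM over all members, entered only through the members with a Stra8 read. Tdh was lowest, at 88.1 against 172 CPM (-0.96). The naive median was -0.09, the germ cell median 0.32 and the mesenchyme median -0.21. Members without a Stra8 read had a median of 16197 reads per cell and those with one 13427.

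Cells of other tags that met the same limits were set beside the d16 members. The germ cell list had a median log2 ratio to the other cells of the tag of 3.41 in d16, 4.05 in d8 (71 cells met the limits), 4.15 in primed (62 cells), 2.02 in naive and 0.78 in d16+10p cells. For the naive list the medians were 2.99, 2.06, 2.92, 2.19 and 1.83. Thinned, 88.2% of d16 members, 38.4% of naive and 44.7% of d16+10p cells had a Dazl read, and 55.8%, 10.7% and 29.4% a Stra8 read. The genes entering each list differ between tags, each tag is 1 population without replicates, and naive cells are of another line. More cells carried the naive, primed, d8 and d16+10p tags than were loaded. These values are therefore set side by side without a test.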

How the data were processed

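All 5 tagged populations were pooled and read as 1 library. Per the study's methods and the labels, adapters were trimmed with cutadapt 2.10, reads were mapped with Bowtie2 2.3.4.1 to mouse cDNA and ncRNA sequences (mm10, GRCm38.p6), and reads of a gene symbol were counted per cell barcode. Barcodes below the inflection of the read number curve were removed, each cell was given the tag with the most reads, and cells with the lowest ratio of first to second tag were removed as doublets. The deposited table holds these raw counts of 33963 gene symbols in 17720 cells, as made by the authors. Counts are reads, since no molecular identifier is described. Seurat 2.3.4 is named in the submitters' processing notes. No cell name was shared between tags, 0 columns were left unused and 0 rows lacked a name.

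Counts of the deposited table were summed over members and over other d16 cells and divided by the total. Dppa5a, the Zscan4 genes and the mitochondrial genome were kept out of the 4352 genes compared, which had at least 50 CPM in either group. Intervals are exact binomial and Poisson intervals at 95%. Shares, spread and relations used cells thinned to 5000 reads without replacement. Background shares came from cells of any tag with 2000 CPM or more over the macrophage list and Dppa5a below 1000 CPM. The ratio and spread calculations were tested on simulated data first. Python 3.11.15 with numpy 2.4.6, pandas 2.3.3 and scipy 1.17.1, and R 4.3.3 with edgeR 4.0.16 (TMM factors only), were used.

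Genes were named from the pluripotency, germ cell, primed and mesoderm lists at 50 CPM or more, from the 15 largest ratios in each direction (genes with 100 summed reads or more) and from the 20 widest genes, and other lists were given by counts with examples, highest level first. Genes under 50 CPM, examples out of that order in the epithelial, LIF, FGF and proliferation lists, the genes near Dppa5a, the examples in ordered members and the extra pairs were picked after their values were seen. The members and all lists were chosen with earlier results of these data known.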

Additional observations from a re-analysis of the deposited data

Results flagged for a closer look

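The same limits were met by cells of tags that the comparison does not use. Among d8 cells, 71 of 9627 met them, with Dppa5a at 2186 CPM, Dazl at 433 CPM (402 to 465) and Nanog at 263 CPM (239 to 289), against 72.1, 19.6 and 45.2 CPM in the other d8 cells. Among primed-tagged cells, 62 of 1826 met them. They had Dazl at 803 CPM (747 to 862), Stra8 at 449 CPM (407 to 494) and Hormad1 at 136 CPM. The other primed-tagged cells had 25.7, 12.5 and 6.94 CPM, and the d16 members 897, 330 and 169 CPM. The study loaded 500 primed and 9000 d8 cells, fewer than carried these tags. Whether the 62 and the 71 cells came from the cultures of their tags was not tested.

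The 22 d16 cells left out for their Zscan4 reads had Zscan4c, a 2-cell stage gene, at 784 CPM, against 2.63 CPM in members. They also had Dazl at 1110 CPM (990 to 1242), Stra8 at 396 CPM and Nanog at 751 CPM (652 to 861), against 897, 330 and 507 CPM in members, whereas Pou5f1 was at 134 CPM (94.5 to 185) against 348 CPM. Copies of Zscan4 share reads, and the level of a single copy is uncertain.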

How the results depend on the processing

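No paired analysis was possible because all cells came from 1 library with no shared replicate numbers and no result rests on a test. Of 77 alternatives over 9 results, 48 kept the value, 28 moved it and 1 turned its sign, and the cause was not tested beyond what each alternative removes. With the Dppa5a limit at 500 CPM the member share was 31.7%, and the list medians were 3.17 (naive), 3.97 (germ cell) and -1.87 (mesenchyme); at 2000 CPM they were 25.1%, 2.55, 2.90 and -2.05. With 2000 to 8000 genes per cell the share was 33.2% and the mesenchyme median -1.99. Against d16 cells without a Dppa5a read, the medians were 3.39, 4.37, -0.43 (primed) and -2.01. With the mean of CPM per cell, germ cell and mesenchyme were 3.65 and -2.11. With 10 CPM added they were 2.67 and -1.87, and naive 2.25. Without the members above the 90th percentile of reads, mesenchyme was -2.16. A level filter of 20 CPM gave 1017 genes higher and 1334 lower, a germ cell median of 2.93 and a primed median of 0.46, the sign turned. Without a filter, 1869 were higher and 2808 lower, with medians of 2.35 (germ cell) and -2.03 (mesenchyme). The spread of germ cell genes was 1.19 in cells that were not thinned. TMM scaling moved no result, and the median spread of the naive list lay between 1.09 and 1.19 in 7 alternatives. Reads, not molecules, were counted, so that counting intervals are too narrow, and genes under 50 CPM are rarely read in a single cell.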
